A study of Mus musculus with 12 samples.

Results

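The nuclear-encoded genes of the mitochondrial respiratory chain and ATP synthase were followed in mouse liver across 3 feeding states. Members were chosen by name alone, as protein-coding loci whose gene symbol begins with Nduf, Uqcr, Cox4 to Cox8 or Atp5, or is Sdha, Sdhb, Sdhc or Sdhd. This gave 140 loci of 88 genes among 66468 loci in all, of which 41 genes were assigned to complex I, 4 to complex II, 8 to complex III, 19 to complex IV and 16 to complex V. By role, 24 encode core subunits, 46 accessory subunits, 10 assembly factors and 8 isoforms known mainly from other tissues, and the 70 core and accessory subunits together are called structural subunits below.

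Total RNA was sequenced from livers of male 17-week-old C57BL/6 mice on control diet (the study's methods give the substrain as C57BL/6N), with 4 libraries per group. AL mice ate ad libitum, FA mice were fasted for 16 h, and RF mice were fasted for 16 h and then had food again for 6 h. No transgene or drug was involved, and the hour of tissue collection is not stated, so feeding state and time of day cannot be told apart. Expression is given as FPKM, a fragment count scaled by transcript length and by library size, pooled into 1 value per group and locus, so these values show no SD or spread between mice. The authors' own test columns were not used, no p-value is reported, and whether a difference exceeds the spread between mice is therefore not stated. A gene is called higher or lower below when 2 pooled values differ by 1.5-fold or more and at least one of them reaches an FPKM of 1. In whole liver, fewer cells of a type and less RNA per cell cannot be told apart.

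The respiratory chain passes electrons from NADH (complex I) and succinate (complex II) through ubiquinone to complex III, cytochrome c and complex IV, where oxygen is reduced, and the proton gradient built on the way drives ATP synthase, here called complex V. Most of its subunits are encoded in the nucleus and imported, and a small set is encoded in mitochondrial DNA. In hepatocytes this chain reoxidizes the cofactors reduced in fatty acid oxidation and supplies the ATP that gluconeogenesis and urea synthesis consume. Many of these genes are known to carry promoter sites for nuclear respiratory factor 1 (NRF1), GA-binding protein (an ETS factor) and YY1.

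Promoter sequences were therefore inspected first, in RefSeq windows on GRCm38.p6 that reach from 250 bases before to 50 bases after a transcript start. Of the 88 genes, 70 had a window (75 windows, as some genes have several starts). The NRF1 motif GCGCANGCG was searched on both strands and was present in 29.3% of the members' windows, beside 6.25% of all 32851 windows and 12.5% of the 2609 windows of genes with a mean FPKM of 10 or more. The ETS motif CCGGAAGT was present in 6.67% of the members' windows (5 of 75) and in 3.89% of all windows. It was present in 6.82% of those of genes with a mean FPKM of 10 or more, so members did not hold these exact letters more often than that set. The YY1 motif AAGATGGCG was present in 9.33% of the members' windows, 1.40% of all windows and 2.76% of those of the abundant genes. A match describes letters and not a bound site. The structural subunit with the most NRF1 matches in each complex (the more abundant one in a tie) is printed as the example of that complex, 5′ to 3′ on the gene's strand, with all motif matches in capitals.

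Ndufb4 promoter: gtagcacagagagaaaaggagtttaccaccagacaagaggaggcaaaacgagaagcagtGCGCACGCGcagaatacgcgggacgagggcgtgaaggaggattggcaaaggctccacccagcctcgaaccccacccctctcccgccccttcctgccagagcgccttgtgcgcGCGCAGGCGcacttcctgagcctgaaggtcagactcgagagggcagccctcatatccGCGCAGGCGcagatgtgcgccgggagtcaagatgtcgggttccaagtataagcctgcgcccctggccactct
Sdha promoter: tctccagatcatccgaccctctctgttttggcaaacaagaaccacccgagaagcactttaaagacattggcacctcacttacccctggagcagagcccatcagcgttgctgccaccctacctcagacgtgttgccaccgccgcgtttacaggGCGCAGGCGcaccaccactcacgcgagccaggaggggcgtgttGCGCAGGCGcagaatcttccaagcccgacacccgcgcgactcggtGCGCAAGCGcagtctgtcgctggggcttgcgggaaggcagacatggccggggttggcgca
Uqcrc1 promoter: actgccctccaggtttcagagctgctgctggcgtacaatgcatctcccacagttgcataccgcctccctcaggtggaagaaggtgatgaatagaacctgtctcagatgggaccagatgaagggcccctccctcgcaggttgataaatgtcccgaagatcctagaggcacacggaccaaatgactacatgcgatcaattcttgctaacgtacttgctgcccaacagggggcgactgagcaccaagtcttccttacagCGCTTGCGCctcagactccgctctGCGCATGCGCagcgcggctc
Cox6a1 promoter: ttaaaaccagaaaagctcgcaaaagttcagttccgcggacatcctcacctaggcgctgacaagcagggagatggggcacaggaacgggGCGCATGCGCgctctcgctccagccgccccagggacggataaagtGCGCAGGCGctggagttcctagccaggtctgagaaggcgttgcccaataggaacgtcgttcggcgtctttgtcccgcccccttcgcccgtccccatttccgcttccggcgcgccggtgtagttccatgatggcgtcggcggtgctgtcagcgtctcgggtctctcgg
Atp5k promoter: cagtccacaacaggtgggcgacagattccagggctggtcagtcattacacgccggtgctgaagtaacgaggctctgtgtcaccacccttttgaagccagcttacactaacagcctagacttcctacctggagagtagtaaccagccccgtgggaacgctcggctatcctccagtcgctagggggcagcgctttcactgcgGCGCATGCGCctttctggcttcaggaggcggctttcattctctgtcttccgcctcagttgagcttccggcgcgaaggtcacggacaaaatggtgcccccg

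The Ndufb4 window lies at chr16:37654319-37654618 on the minus strand, with 3 NRF1 matches that begin 191, 79 and 22 bases before the start. The Sdha window (chr13:74350191-74350490, minus strand) holds 3, which begin 98, 55 and 10 bases before it. The Uqcrc1 window (chr9:108936398-108936697, plus strand) differs in that its 3 matches lie after the start, and 2 of them overlap, since the letters there match on both strands. The Cox6a1 window (chr5:115348909-115349208, minus strand) also holds 3 matches, of which 2 overlap. The Atp5k window (chr5:108434350-108434649, minus strand) holds 2 that overlap. Sdha, the flavoprotein that oxidizes succinate, and Uqcrc1, a matrix-facing protein of complex III, are returned to below with their levels.

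The label of the tissue was checked against defining markers. Of 8 hepatocyte markers 7 had an FPKM of 1 or more, and the list summed to 6715 FPKM in AL and 7668 in FA. Its members differed in direction, with Ttr at 2324 in AL and 1504 in FA and Cyp2e1 at 1031 in AL and 2654 in FA. Alb was listed at 0 in both groups, so that a value of 0 in these tables is reported only as listed. Kupffer cell markers summed to 22.9 FPKM in AL and 19.3 in FA, endothelial markers to 34.4 and 30.3, stellate markers to 50.9 and 48.2, and cholangiocyte markers to 2.93 and 2.21. Erythroid markers summed to 758 in AL and 562 in FA. None of the 3 skeletal muscle markers in the tables and none of 3 brown adipocyte markers reached an FPKM of 1 in AL or FA. The part of any of these in the ratios below was not tested.

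The comparison of FA with AL asks whether transcripts of the respiratory chain follow a fast. Of the 88 genes, 82 passed the filter on low values. Each was represented by the locus of the gene with the highest mean FPKM. No structural subunit differed by 1.5-fold between FA and AL. The 70 structural subunits had a median log2 ratio of -0.08 (25th to 75th percentile -0.18 to -0.01) and lay below 0 in 53 genes and above 0 in 17. The median over all 9672 protein-coding genes tested was -0.04 (25th to 75th percentile -0.25 to 0.15), with 5418 below 0. The structural subunits thus lay in a narrower band than protein-coding genes at large, with a median slightly further down. Their spread was not compared with that of genes at a like level. Among the 82 members, 2 were called higher and 2 lower, none of them a structural subunit, while 4.97% of all genes tested were called higher and 8.26% lower. With ratios centred on the median of all protein-coding genes, 2 members were higher and 1 lower, as Cox7a1 no longer passed, and the median of the 82 members was -0.037.

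The summed FPKM of the 70 structural subunits was 5377 in AL and 4995 in FA, a change of -7.11%. It changed by -5.05% for complex I (33 subunits), -5.87% for complex II (4), -5.45% for complex III (8), -8.13% for complex IV (10) and -9.06% for complex V (15). By median log2 ratio the order was complex IV at -0.11, complex II at -0.09, complex I at -0.08, complex V at -0.07 and complex III at -0.07, and without replicate values these neighbours were not separated. All 10 structural subunits of complex IV lay below 0. Core subunits had a median of -0.02 with 14 of 24 below 0, and accessory subunits one of -0.09 with 39 of 46 below 0.

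**Figure D1:**
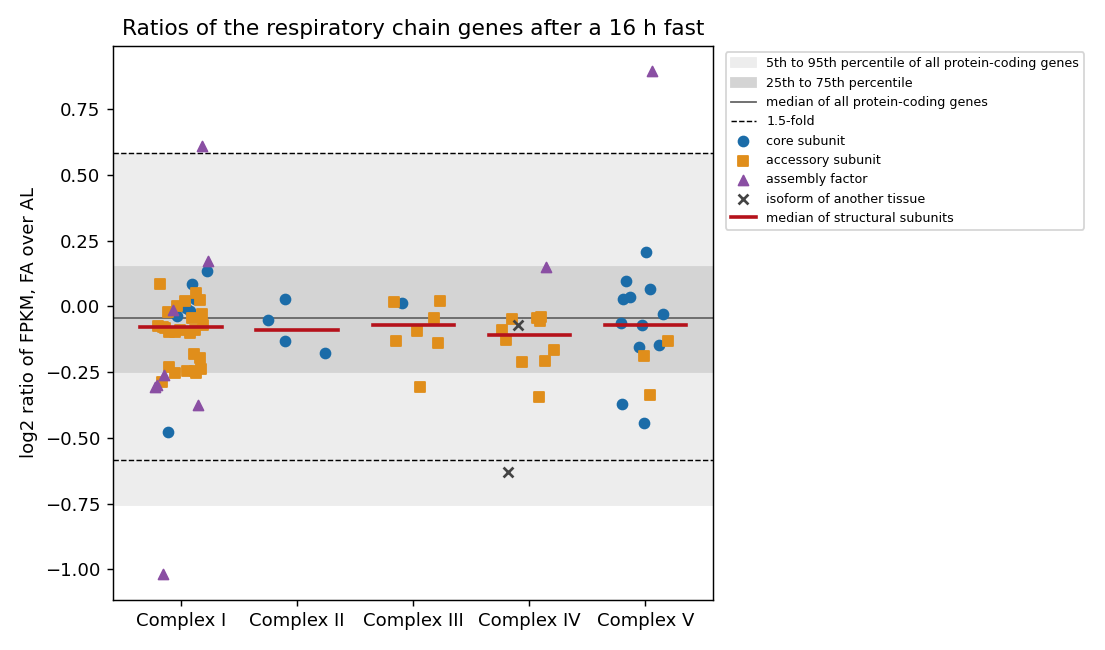
Log2 ratio of FPKM in FA over AL (vertical axis) for the 82 members that passed the filter, by complex (horizontal axis), with a symbol for each role, the median of the structural subunits as a red line, and the percentiles of all 9672 protein-coding genes as grey bands. Every structural subunit lies between the dashed 1.5-fold lines, and the members beyond them are 3 assembly factors and 1 isoform known from another tissue.

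Complex I is the entry point for NADH. Its subunits had a median FPKM of 40.5 in AL and 35.7 in FA. The most abundant were Ndufb9 and Ndufa6, accessory subunits of the LYR family. Ndufb9 stood at 113 in AL and 115 in FA, and Ndufa6 at 100.2 in AL and 100.5 in FA, so both were level between the groups. The lowest ratio belonged to Ndufs8, an iron-sulfur subunit of the arm that leads electrons to ubiquinone, at 31.8 in AL and 22.8 in FA (log2 ratio -0.48). This locus (chr19:3907622-3929761) also takes in Aldh3b1, so its fragments cannot be assigned to Ndufs8 alone. Among structural subunits the highest ratio was that of Ndufs7, a neighbouring iron-sulfur subunit, at 32.2 in AL and 35.3 in FA (log2 ratio 0.13).

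The core subunits of the NADH-oxidizing tip were level as well. Ndufv1, which binds NADH and the flavin, stood at 40.5 in AL and 40.0 in FA, and Ndufv2 at 59.7 in AL and 63.2 in FA. Ndufs1, the largest subunit of that arm, stood at 33.2 in AL and 32.4 in FA. Several accessory subunits lay further down, among them Ndufs5 at 22.3 in AL and 18.3 in FA (log2 ratio -0.29). Ndufc1 and Ndufc2, paired subunits of the membrane arm, had log2 ratios of -0.25 and -0.25. Ndufab1, the mitochondrial acyl carrier protein that also serves lipoic acid synthesis, stood at 32.7 in AL and 27.7 in FA (log2 ratio -0.24).

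Complex II, succinate dehydrogenase, is built from nuclear genes alone and also serves the tricarboxylic acid cycle. Sdha stood at 76.7 in AL and 70.0 in FA (log2 ratio -0.13). Sdhb, the iron-sulfur subunit, stood at 83.7 in AL and 80.7 in FA (log2 ratio -0.05). Of the membrane anchors, Sdhc stood at 44.7 in AL and 39.6 in FA (log2 ratio -0.18) and Sdhd at 34.5 in AL and 35.2 in FA (log2 ratio 0.03). The 4 levels stayed within a 2.42-fold span in AL and a 2.29-fold span in FA. This was the narrowest among the complexes, but complex II also has the fewest subunits. The spans of complexes I and V include Ndufb8 and Atp5o at minor opposite-strand loci, described below.

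Complex III passes electrons to cytochrome c. Its most abundant transcripts were those of the small subunits Uqcr11, at 161 in AL and 146 in FA (log2 ratio -0.14), and Uqcrh, the hinge protein, at 138 in AL and 140 in FA. Uqcrh had the highest ratio of this complex at the loci used (log2 ratio 0.02). The lowest ratio was that of Uqcrq, a small subunit beside cytochrome b, at 71.1 in AL and 57.5 in FA (log2 ratio -0.31). Uqcrc1 stood at 75.8 in AL and 73.5 in FA, and its partner Uqcrc2 at 91.7 in AL and 92.8 in FA. Uqcrfs1, the Rieske iron-sulfur protein, stood at 32.8 in AL and 33.2 in FA, both at a locus on the strand opposite to the gene. Its less abundant locus on the annotated strand stood at 11.9 in AL and 13.4 in FA (log2 ratio 0.18).

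Complex IV, cytochrome c oxidase, held the most abundant transcript of all members. Ndufa4, named for complex I but now placed in complex IV, stood at 335 in AL and 322 in FA (log2 ratio -0.06). Cox6c followed at 184 in AL and 169 in FA (log2 ratio -0.13). The lowest ratio among its structural subunits was that of Cox7a2, the ubiquitous isoform of subunit 7a, at 89.8 in AL and 70.8 in FA (log2 ratio -0.34). The highest ratio was that of Cox7a2l, which joins complexes III and IV into supercomplexes and is counted here as an assembly factor. It stood at 13.8 in AL and 15.3 in FA (log2 ratio 0.15), at a locus on the opposite strand. Its locus on the annotated strand stood at 13.2 in AL and 15.2 in FA (log2 ratio 0.20). Cox4i1, the main isoform of subunit 4, was not analysed here.

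Complex V makes ATP. Its most abundant transcripts were Atp5k, subunit e of the membrane part, at 260 in AL and 206 in FA (log2 ratio -0.34), and Atp5b, the catalytic beta subunit, at 241 in AL and 247 in FA (log2 ratio 0.04). Atp5c1, the gamma subunit, was also level, at 119 in AL and 117 in FA. The 3 genes Atp5g1, Atp5g2 and Atp5g3 encode the same mature subunit c, which forms the rotating membrane ring, with different import sequences. Atp5g1 (chr11:96068852-96075730) stood at 103 in AL and 75.5 in FA, the lowest ratio of complex V (log2 ratio -0.45). Atp5g3 stood at 106 in AL and 95.9 in FA (log2 ratio -0.14), and Atp5g2 at 25.4 in AL and 27.1 in FA (log2 ratio 0.10). The sum over subunit c genes was thus carried by Atp5g1 and Atp5g3 in both groups. Atp5e, the epsilon subunit of the central stalk, stood at 144 in AL and 111 in FA (log2 ratio -0.37).

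**Figure D2:**
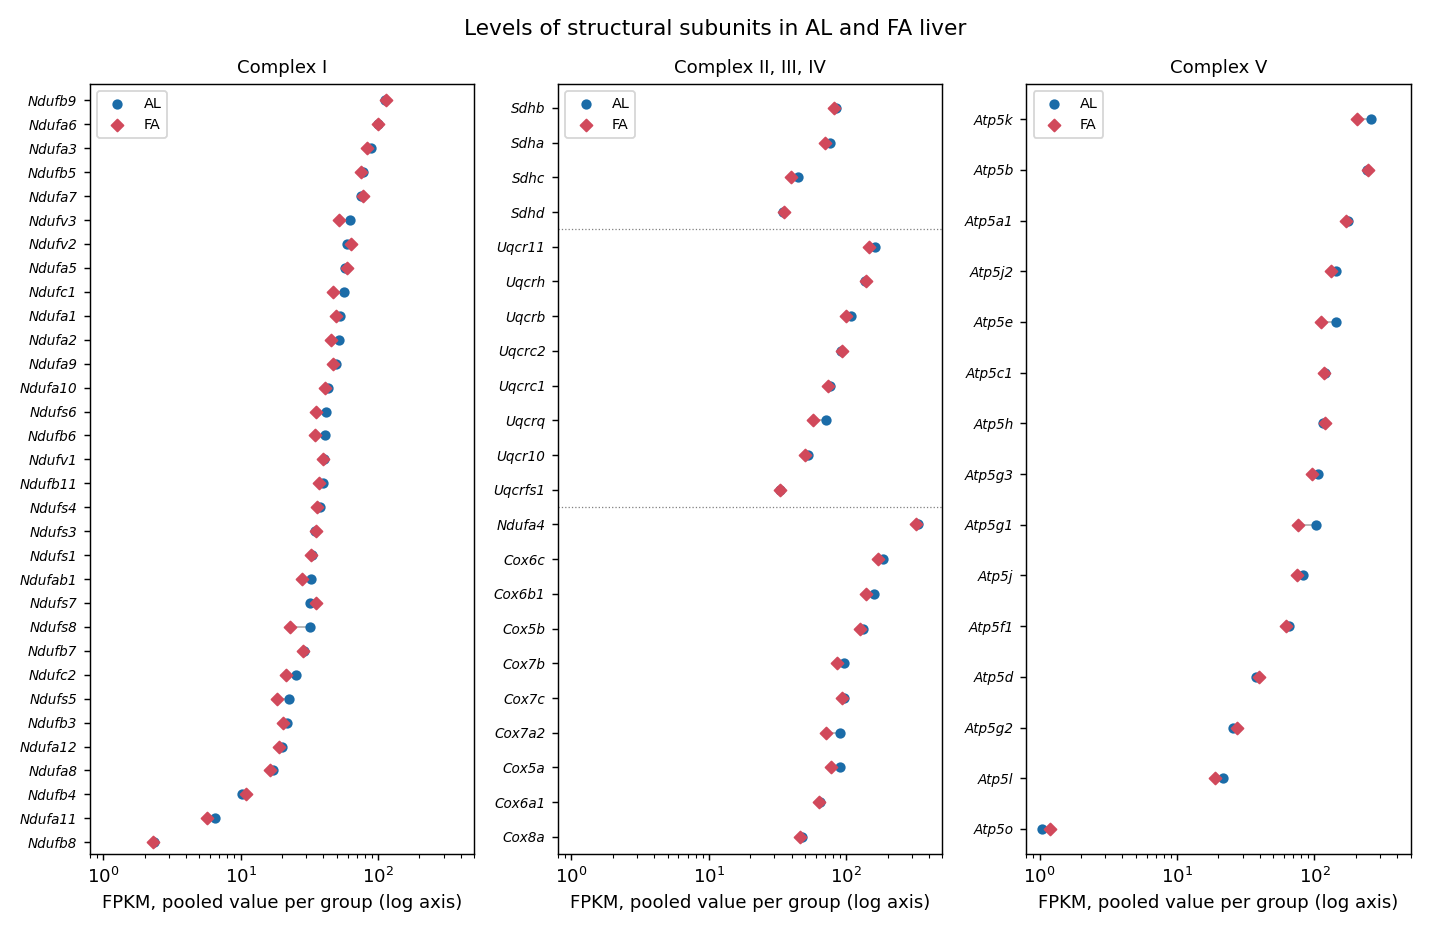
FPKM of 69 of the 70 structural subunits (horizontal axis, logarithmic) in AL (blue circles) and FA (red diamonds), 1 pooled value per group, sorted by the AL level within each complex. The symbols of a gene lie close together beside the spread between genes, which for complex I runs from 6.45 (Ndufa11) to 113 (Ndufb9) in AL. Ndufb8 (2.34) lies below that because it is shown at a minor locus on the opposite strand. Ndufs8, Atp5g1 and Atp5e show some of the widest gaps.

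A few members share a locus with another gene. The Atp5o and Ndufb8 loci that the naming rule finds are minor ones on the opposite strand, at 1.04 and 2.34 FPKM in AL. On the annotated strand these genes fall in loci that carry another gene's name, with Donson (98.5 in AL and 91.4 in FA) for Atp5o, which encodes the stalk protein OSCP, and with Sec31b (70.7 in AL and 66.3 in FA) for Ndufb8. Ndufb2 (47.8 in AL and 39.7 in FA), Ndufa13 (55.2 and 46.4) and Ndufb10 (42.1 and 38.4) likewise lie in loci outside the rule. All 5 of these shared loci were lower in FA, with log2 ratios from -0.27 to -0.09. Processed pseudogenes named for members were also listed, up to an FPKM of 1.95 in FA for Uqcrh-ps2, so reads of near-identical copies may be shared between them and Uqcrh.

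The 4 members past 1.5-fold lie outside the structural core. Ndufaf7, a methyltransferase that acts in complex I assembly (locus chr17:78937135-79020816), stood at 9.94 in AL and 15.2 in FA (log2 ratio 0.61). Ndufaf5, which modifies Ndufs7 (locus chr2:140170649-140203689), stood at 2.30 in AL and 1.14 in FA (log2 ratio -1.02). Of these assembly factors of the same complex, one was thus higher and the other lower. Atp5s, a factor B-like protein (locus chr12:69690436-69744658), was near the filter, at 0.957 in AL and 1.78 in FA (log2 ratio 0.90). Cox7a1, the heart and muscle isoform of subunit 7a (locus chr7:30184144-30186078), was also low, at 1.73 in AL and 1.12 in FA (log2 ratio -0.63). With a filter of 5 FPKM only Ndufaf7 was left. The 10 assembly factors together had a median of -0.14 and summed to 72.0 FPKM in AL and 75.4 in FA.

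Isoforms known mainly from other tissues were listed at 0 or stood low. Cox7b2 and Cox8c were listed at 0 in AL, FA and RF, as was Cox6a2 in AL and FA. Cox4i2, the lung and hypoxia isoform of subunit 4, stood at 0.013 in AL and 0.012 in FA, and Cox6b2, known from testis, at 0.110 in AL and 0.654 in FA. Cox8b, a heart and muscle isoform in rodents, was listed at 0 in AL and stood at 0.140 in FA. Their counterparts stood far higher, with Cox6a1 at 64.8 in AL, Cox6b1 at 160 in AL, Cox7b at 96.3 in AL and Cox8a at 47.3 in AL. Ndufa4l2, the hypoxia-inducible relative of Ndufa4, stood higher than the other genes of this kind, at 12.5 in AL and 11.9 in FA. Cox4i2, Cox6a2, Cox6b2, Cox7b2, Cox8b and Cox8c are the 6 genes that did not pass the filter.

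Many members were seen a second time on the other strand. Of the 140 loci, 86 lay on the annotated strand of the gene they name and 54 on the opposite one, and 41 genes had both. Where the best locus on each strand had an FPKM of 1 or more (40 genes), the opposite one stood at a median of 12.98% of the annotated one in AL. The FA over AL ratio had a median of -0.09 on the annotated strand and -0.12 on the opposite strand, and the 2 ratios of a gene differed by a median of 0.07 on the log2 scale and by at most 0.40. They lay on the same side of 0 in 29 of 40 genes. Both loci come from the same libraries and are not replicates.

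The genes furthest down on the annotated strand were also down on the other. At the opposite locus Atp5g1 stood at 14.2 in AL and 11.0 in FA (log2 ratio -0.37), and Atp5e at 6.06 in AL and 4.36 in FA (log2 ratio -0.48). Uqcrq stood there at 22.8 in AL and 18.2 in FA (log2 ratio -0.32), and Cox7a2 at 4.91 in AL and 4.16 in FA (log2 ratio -0.24). Ndufs8 stood at 3.49 in AL and 2.78 in FA (log2 ratio -0.33). What the fragments on the opposite strand are was not tested.

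**Figure D3:**
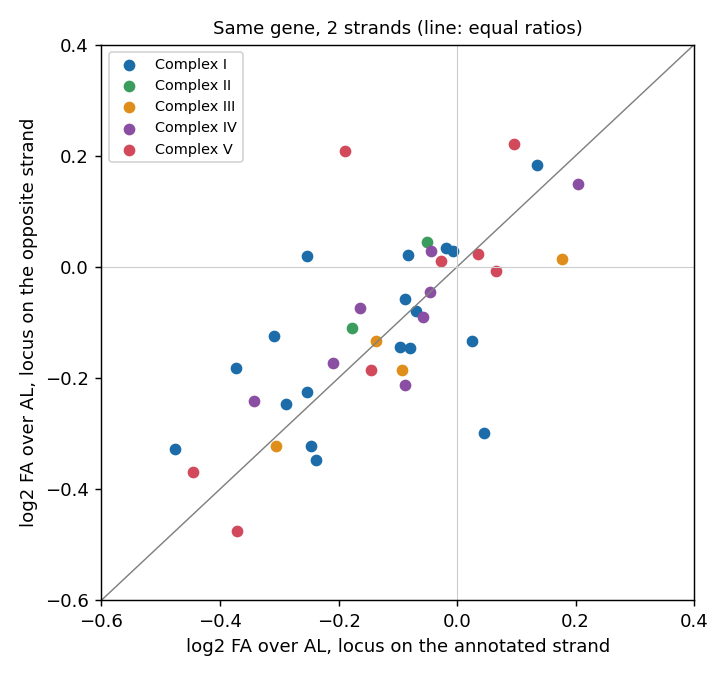
Log2 ratio of FA over AL at the locus on the annotated strand (horizontal axis) and at the locus on the opposite strand (vertical axis) of the same gene, 1 point for each of 40 genes, coloured by complex, with a line of equal ratios. The points follow the line, with a median distance between the ratios of 0.07 and 29 of 40 genes on the same side of 0.

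Short transcripts had lower ratios, among members only in the class under 700 bases and among all genes across the classes. Lengths are those of the principal transcript in GENCODE M21, and genes with a mean FPKM of 10 or more were used. Structural subunits with a transcript under 700 bases (25 genes) had a median log2 ratio of -0.13, those from 700 to under 1500 bases (25 genes) -0.07, and longer ones (17 genes) -0.07. Over all protein-coding genes at that level the medians were -0.12 (124 genes), -0.09 (520 genes) and -0.02 (1877 genes). The members' transcripts were short, with a median length of 875 bases beside 2336 for all of these genes. Cytosolic ribosomal proteins, another group of short and abundant transcripts, had a median of -0.11 over 78 genes, and mitochondrial ribosomal proteins one of -0.11 over 74. The part of transcript length in the members' ratios was not tested.

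The comparison of RF with FA asks whether 6 h of food after the fast changes these transcripts. Its table gives the value of 1 assembled transcript per locus, and how it was picked is not stated. Of 132 member loci with an FPKM of 1 or more in FA, 64 had FA values within 10% of each other in both tables. At the remaining 68 loci the RF table held the lower FA value, often by far. At the edge of this tolerance the values differed by 3.93% for Ndufv3 and 8.24% for Cox7a2l just inside, and by 10.6% for Ndufs6 and 12.4% for Ndufb7 just outside. Loci within the tolerance are called matched below. The same FA libraries enter both comparisons.

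Over every joined locus, 63 members passed the filter and had a median log2 ratio of 0.06 (RF over FA), with 42 above 0, and the 6034 protein-coding genes tested had a median of 0.03 with 3239 above 0. Among the 63, 4 were called higher and 4 lower, beside 9.10% of all genes called higher and 6.84% lower. Of these 8, only Ndufab1 and Ndufaf4 were matched, both higher. The other 6 rest on values that cover part of a locus. Ndufa4 read 124 in FA and 191 in RF there (log2 ratio 0.63), against 322 in FA in the other table. Ndufb4 read 0.000736 in FA and 1.88 in RF, against 10.9 in FA in the other table, and no fold is drawn from it. Ndufa9 (5.33 in FA and 1.60 in RF), Ndufa7 (1.07 and 0.626), Uqcrh (1.68 and 1.08) and Atp5s (1.11 and 0.6995) were the 4 lower ones, all unmatched.

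At matched loci, Ndufaf4, an assembly factor for the ubiquinone module of complex I, stood at 7.35 in AL, 5.97 in FA and 9.47 in RF (log2 ratio 0.67 for RF over FA and 0.37 for RF over AL), at a locus on the opposite strand (chr4:24897961-24905001). A second opposite locus of the same gene stood at 1.93 in AL, 1.87 in FA and 2.47 in RF, and the unmatched annotated locus at 0.730 in FA and 1.47 in RF. RF was thus higher than FA at each of the 3 loci. Ndufab1 stood at 1.56 in AL, 1.23 in FA and 2.10 in RF at its opposite locus (log2 ratio 0.77 for RF over FA), a level close to the filter. Over all matched loci 47 members passed, with a median of 0.05, 35 above 0, 2 called higher and 0 lower. The 4878 protein-coding genes at matched loci had a median of 0.02, with 2581 above 0, 7.42% called higher and 5.76% lower.

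The strand split the matched loci. On the annotated strand 16 structural subunits were matched, and all 16 lay above 0 for RF over FA, with a median of 0.12 and a range from 0.01 to 0.28, while 817 protein-coding genes so selected had a median of 0.09 with 487 above 0. On the opposite strand 32 subunits had a median of 0.01 with 19 above 0, and 4390 protein-coding genes had a median of 0.01. Examples on the annotated strand were Ndufa2 (52.3 in AL, 45.7 in FA and 55.4 in RF), Uqcrb (109 in AL, 99.5 in FA and 112 in RF) and Cox8a (47.3 in AL, 45.9 in FA and 51.7 in RF). Ndufb9 stood at 113 in AL, 115 in FA and 125 in RF. Cox5a, a matrix-side subunit of complex IV, was nearly level between FA and RF, at 89.5 in AL, 77.6 in FA and 78.3 in RF.

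**Figure D4:**
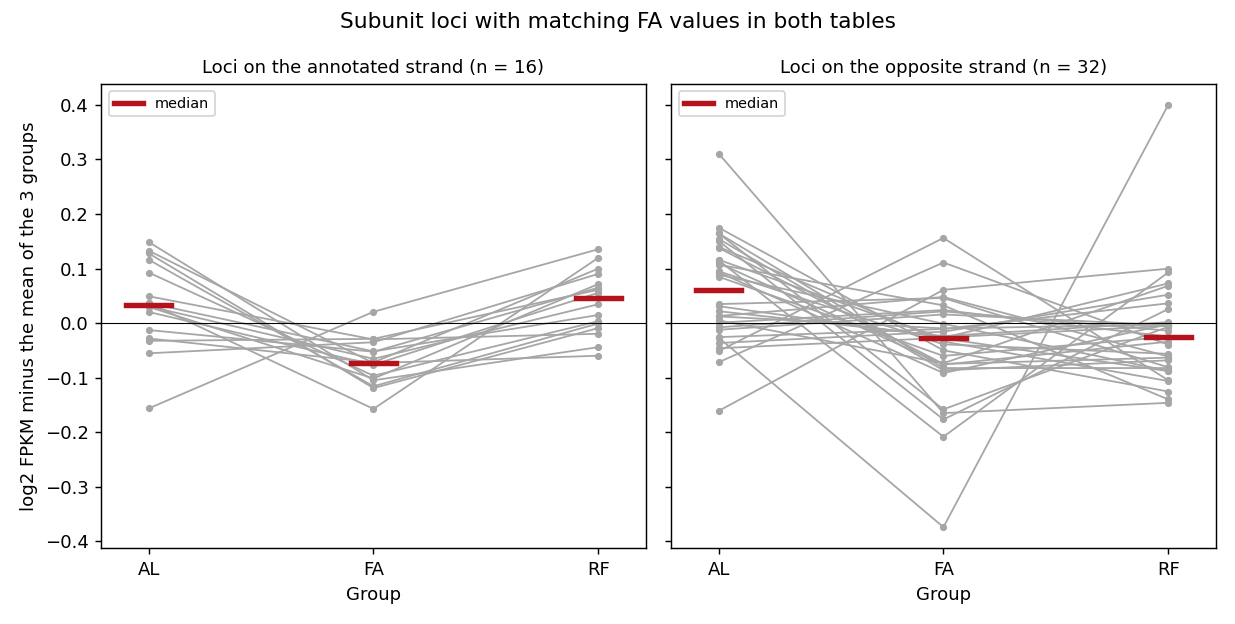
Log2 FPKM of structural subunits at matched loci in AL, FA and RF, each minus the gene's mean over the 3 groups (vertical axis), with 16 loci on the annotated strand (left) and 32 on the opposite strand (right), 1 grey line per locus and red bars for medians. On the left all 16 loci lie higher in RF than in FA, and on the right 19 of 32 do.

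RF was set beside AL only at matched loci, since these groups come from different tables. None of the 48 members that passed was called in either direction, with 3.47% of 4903 protein-coding genes called higher and 6.10% lower. The members' median log2 ratio was -0.04, with 17 above 0 and 31 below, beside a median of -0.02 over all genes. The direction differed with the strand of the locus, and some subunits have matched loci on both. On the annotated strand 16 structural subunits had a median of 0.02 with 9 above 0, and on the opposite strand 32 had one of -0.08 with 24 below 0. Complex IV lay lowest with a median of -0.19 over 11 members, complex V stood at -0.09 over 7, complex I at -0.02 over 26 and complex III at 0.01 over 4, and complex II had no matched member. In each complex so ranked, most of these loci lay on the opposite strand. In complex IV the loci of the 2 strands differed. On the annotated strand Cox6a1 stood at 64.8 in AL, 63.1 in FA and 68.4 in RF (log2 ratio 0.08 for RF over AL) and Cox8a, given above, had a log2 ratio of 0.13, while Cox5a was lower in RF at -0.19. Cox6b1 stood at 8.67 in AL, 7.69 in FA and 7.31 in RF at its opposite locus, and Cox7b at 8.33 in AL, 7.91 in FA and 7.02 in RF. Cox7a1, at 1.73 in AL and 1.21 in RF, and Atp5e, at 6.06 in AL and 4.41 in RF at its opposite locus, had the lowest ratios, with log2 values of -0.51 and -0.46. Uqcrq, low in FA, stood at 22.8 in AL, 18.2 in FA and 22.5 in RF at its opposite locus. Its more abundant locus on the annotated strand was not matched, so its RF level there is not known.

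The partners of the nuclear subunits were read from lists of other genes. Of 13 mitochondrially encoded subunits 10 named a locus and 7 passed the filter, none called, with a median log2 ratio of -0.29 for FA over AL and 6 of 7 below 0. The cytochrome b gene mt-Cytb stood at 46.9 in AL and 36.9 in FA (log2 ratio -0.35) and mt-Nd5 at 157 in AL and 127 in FA (log2 ratio -0.31). The exception was mt-Nd6, the one protein gene on the light strand of mitochondrial DNA, at 568 in AL and 731 in FA (log2 ratio 0.36). In RF over FA 6 of 6 lay above 0 with a median of 0.23, and mt-Co1 read 34.9 in AL, 28.5 in FA and 34.9 in RF. In AL mt-Co1 thus stood below the nuclear Cox6c (184) and mt-Nd6 above it. Whether these loci hold the full levels of the mitochondrial genes was not tested. Of the genes next to the chain, Cycs (cytochrome c) stood at 22.5 in AL and 18.02 in FA and Cyc1 (cytochrome c1 of complex III) at 36.1 and 33.7. Atpif1, the inhibitor of ATP synthase when it runs backwards, stood at 6.60 in AL and 4.57 in FA (log2 ratio -0.53).

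Assembly factors outside the naming rule numbered 35 past the filter, with a median of -0.05, 1 called higher and 1 lower in FA over AL. Over all protein-coding genes tested, 4.97% were called higher and 8.26% lower. The counts in this paragraph are of 1 gene at most in each direction, too few to set against those shares. The higher one was Coa6, a copper-handling factor for complex IV, at 3.39 in AL and 6.49 in FA (log2 ratio 0.93). The lower one was Uqcc2, a complex III assembly factor, at 20.3 in AL and 13.5 in FA (log2 ratio -0.59). Of 7 other donors of electrons to ubiquinone, 1 was called in each direction. Etfdh, which feeds in electrons from fatty acid oxidation, stood at 42.2 in AL and 69.6 in FA (log2 ratio 0.72), whereas Gpd2, of the glycerol phosphate shuttle, stood at 4.99 in AL and 2.41 in FA (log2 ratio -1.05) at an opposite-strand locus. Of 13 tricarboxylic acid cycle enzymes none was higher and 1 was lower, the citrate synthase gene Cs at 20.95 in AL and 11.0 in FA (log2 ratio -0.93), and their median was 0.03.

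Of 12 transcriptional regulators past the filter, 2 were called higher in FA and none lower, with a median of 0.15, beside 4.97% of all genes higher and 8.26% lower. These were the coactivators Ppargc1a, at 1.96 in AL and 3.18 in FA (log2 ratio 0.70), and Ppargc1b, at 1.02 in AL and 1.81 in FA (log2 ratio 0.83), both at loci on the opposite strand. Both were called lower in RF than in FA, among 7 regulators that passed there and beside 6.84% of all genes, with log2 ratios of -1.34 for Ppargc1a and -1.252 for Ppargc1b. Nrf1 stood at 3.39 in AL and 3.20 in FA, Gabpa at 8.42 in AL and 8.84 in FA, its partner Gabpb1 at 2.03 in AL and 1.51 in FA (log2 ratio -0.43), and Yy1 at 7.16 in AL and 9.62 in FA. Tfam, which packages and transcribes mitochondrial DNA, stood at 14.4 in AL and 19.0 in FA (log2 ratio 0.40). The ratios of 8 of these 12 regulators lay above 0, beside 4254 of 9672 protein-coding genes and 17 of 70 structural subunits.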

How the data were processed

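Members and gene lists were chosen with earlier results of these data known. As the study describes it, total RNA without ribosomal RNA was made into stranded libraries, trimmed (flexbar 3.4.0), cleared of ribosomal reads (Bowtie2 2.2.9), aligned to GRCm38 (mm10; STAR 2.6.0c) and quantified (Cufflinks 2.2.1; Ensembl release 90). The authors deposited 2 Cuffdiff tables of FPKM for 66468 loci, pooled by group. They hold 0 single-library columns and no counts, so depth and its precision are unknown. The authors' fold changes, test statistics, p-values and q-values were not used.

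Groups came from the sample labels. Tables were joined on the locus identifier. Ratios (Python 3.11.15, pandas 2.3.3) used no pseudocount and needed an FPKM of 1 in at least one group and above 0 in both, at the gene's locus with the highest mean FPKM, and the code was tested on simulated data. RF was set beside AL only where FA agreed within 10%. Strand was read from the numbering of loci, and 25382 of 25386 loci of known strand at 0 in AL and FA lay on the annotated one. Genes were named by a fixed rule: members past 1.5-fold, in each complex the 2 most abundant and the highest and lowest ratio at an FPKM of 5, the Sdh genes and tissue isoforms. Other named genes were chosen after their values were seen. One subunit counted in the summaries is not reported here by name. Filter, pseudocount, strand, locus choice, centring, fold and tolerance were varied.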

Additional observations from a re-analysis of the deposited data

How the results depend on the processing

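Of 122 recomputed values 97 stayed close to the value given above (medians within 0.1 on the log2 scale, counts within 1.5 times). That margin is wider than most of the medians themselves, so for medians such closeness says little. On the same side of 0 stayed 71 of 76 medians. One that did not was complex V for FA over AL, at -0.07 over its members and 0.01 on the opposite strand only. The members' median ranged from -0.11 to -0.04 for FA over AL, from 0.01 to 0.12 for RF over FA and from -0.05 to -0.04 for RF over AL. For RF over AL only the tolerance was varied here, so that narrow range does not cover the strand. Split by strand, that median was -0.009 over 18 members on the annotated strand and -0.09 over 37 on the opposite one. For RF over FA, the complex III median moved to 0.24 with a filter of 5 FPKM (4 genes left), and the complex IV median to -0.054 on the opposite strand only. Counts of called members are small and moved more. For FA over AL the count of higher members, 2, became 1 with a filter of 5, and 0 with a pseudocount of 1, on the opposite strand only, among structural subunits only and at a fold of 2. The count of lower members, 2, became 0 with a filter of 5, on the opposite strand only and among structural subunits only, 1 with a pseudocount of 1, with centred ratios and at a fold of 2, and 8 at the lowest fold tried. For RF over FA the count of higher members, 4, became 9 with no filter, 2 with a filter of 5, on the opposite strand only and at matched loci (chosen after seeing the data), and 1 at a fold of 2. The count of lower members, 4, became 9 with no filter, 1 with a filter of 5, with a pseudocount of 1 and at a fold of 2, and 0 on the opposite strand only and at matched loci. Shares of all genes called are not given for these settings, except at matched loci above. The number of genes passing also differed between settings, so these counts are not set against a background. For these shifts the cause was not tested. Complex II gave no value for RF over AL. No paired analysis was possible because each group has 1 pooled value, and leaving out a replicate could not be run for the same reason. Depth is unknown, so how far it limits low values such as those of Atp5s and Cox7a1 is unknown too.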
